A study of Mus musculus with 3 samples.

Results

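Myoepithelial cells (MECs) of the mouse lacrimal gland (LG) were examined in 3 single-cell RNA-seq libraries, and 859 of 19592 kept cells were taken as MECs. The female library and male libraries 1 and 2 each pooled 6 LGs from 3 untreated C57BL/6J mice aged 2 months, and the study's methods state that the female library was prepared at another core facility and on another day than the male libraries. Sex, core and day therefore cannot be told apart, and levels are given per library without a test between the sexes. A cell was called a MEC when its summed UMIs (unique molecular identifiers, 1 per captured RNA molecule) of *Cck*, *Cnn1*, *Pcp4* and *Igfbp2* reached 2, *Krt5* and *Krt14* together gave at least 1 UMI, and *Ptprc*, *Pecam1* and *Notch3* gave none. These 9 genes chose the cells, so their values below are a description.

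MECs are epithelial cells that wrap the acini and small ducts of exocrine glands. They rest on the basement membrane, express the keratins and adhesion molecules of basal epithelium, and carry the actin and myosin apparatus of smooth muscle, with which they squeeze secretion toward the ducts. Mural cells (pericytes and vascular smooth muscle) carry the same contractile apparatus around vessels but are not epithelial, and basal duct cells share the keratins without contracting, so these are the cell types a MEC profile has to be set against.

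The female library gave 346 MECs (4.17% of its 8298 kept cells, exact 95% interval 3.75% to 4.62%), male library 1 gave 284 (5.09%, interval 4.53% to 5.70%) and male library 2 gave 229 (4.01%, interval 3.52% to 4.55%). Intervals cover counting error only, and dissociation can change such shares. MECs were compared with 141 mural cells, 1084 duct cells and 2344 fibroblasts, each chosen by UMIs of a few genes (mural cells by *Rgs5*, *Notch3*, *Gucy1a1* and *Des*, duct cells by *Krt5* or *Krt14* together with *Wfdc2*, *Krt7*, *Krt19*, *Ly6d* and *Gpha2*, fibroblasts by *Col1a1*, *Lum*, *Pdgfra* and *Dpt*), and with all other kept cells. The duct gate asked for luminal duct transcripts besides a keratin UMI, so basal duct cells low in these were left out. The female library gave 933 of the duct cells, male library 1 gave 90 and male library 2 gave 61. Endothelial (1315), immune (2079), *Ltf*+ epithelial (736) and acinar cells (3070) serve for levels.

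Depth differed between the libraries. A median MEC held 3624 UMIs and 1437 genes in the female library, 1803 UMIs and 644 genes in male library 1, and 1469 UMIs and 566 genes in male library 2. The MEC sums held 1371225, 605668 and 444932 UMIs, of 63066640, 40609390 and 44661762 UMIs in called barcodes. Transcripts of 116 tear-product genes, which acinar cells make in large amounts and release on dissociation, took 27.7%, 51.2% and 52.0% of MEC UMIs. The acinar peroxidase *Lpo* was found in 9.88%, 21.7% and 23.7% of MECs thinned to 1000 UMIs and in 10.6%, 21.8% and 19.0% of fibroblasts, so MECs carried it at about the share of a cell type that should lack it. Levels are therefore given as CPM, UMIs per 1000000 UMIs outside those 116 genes. No doublets were removed in the main comparisons; a doublet caller marked 28, 22 and 18 MECs and 16, 1 and 2 of the 64, 35 and 42 mural cells. The libraries shared 11 to 17 kept barcodes per pair, of which 0 were MECs in both.

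The gate genes were rarely met alone. At least 2 of *Cck*, *Cnn1*, *Pcp4* and *Igfbp2* were present in 93.1%, 94.0% and 94.8% of MECs, and all 4 in 181, 94 and 60 cells. *Cck*, the precursor of cholecystokinin, was found in 88.2%, 88.7% and 90.0% of MECs at 2144, 3512 and 3520 CPM. In uncalled barcodes with more than 500 and up to 2000 UMIs, taken as a measure of free RNA, *Cck* stood at 12.8, 14.1 and 14.4 CPM. *Igfbp2*, a binding protein of insulin-like growth factors, was found in 93.6%, 87.0% and 90.8% of MECs, the calmodulin regulator *Pcp4* in 62.1%, 54.2% and 41.5%, and the actin-binding calponin *Cnn1* in 83.5%, 70.1% and 65.1%. Mural cells also carried *Cnn1* and *Igfbp2*. *Cnn1* stood at 1264, 1670 and 1358 CPM in MECs and at 194, 147 and 30.7 CPM in mural cells, and *Igfbp2* at 1710, 2591 and 2954 CPM against 48.4, 221 and 215 CPM. *Pcp4* gave 0 UMIs in mural cells.

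Among cells with a *Krt5* or *Krt14* UMI, the threshold fell on a gradient. In the female library, *Acta2* (smooth muscle alpha-actin, which the rule did not use) stood at 18.2 CPM in the 1177 cells with 0 gate UMIs, at 479 CPM in the 73 cells with 1, at 1282 CPM in the 21 cells with 2, at 1897 CPM in the 28 cells with 3 to 4 and at 6555 CPM in the 297 cells with 5 or more. The same bins of male library 1 gave 135, 1337, 2619, 5008 and 8752 CPM, and those of male library 2 gave 50.2, 1778, 4045, 5693 and 7684 CPM. *Acta2* thus rose from bin to bin in each library, and cells just outside the gate already carried it. *Wfdc2*, a luminal duct transcript, ran the other way in the female library, from 982 CPM at 0 gate UMIs to 607, 433, 182 and 23.1 CPM. In the male libraries the bins of 1 and 2 gate UMIs held 11 to 21 cells.

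**Figure D1:**
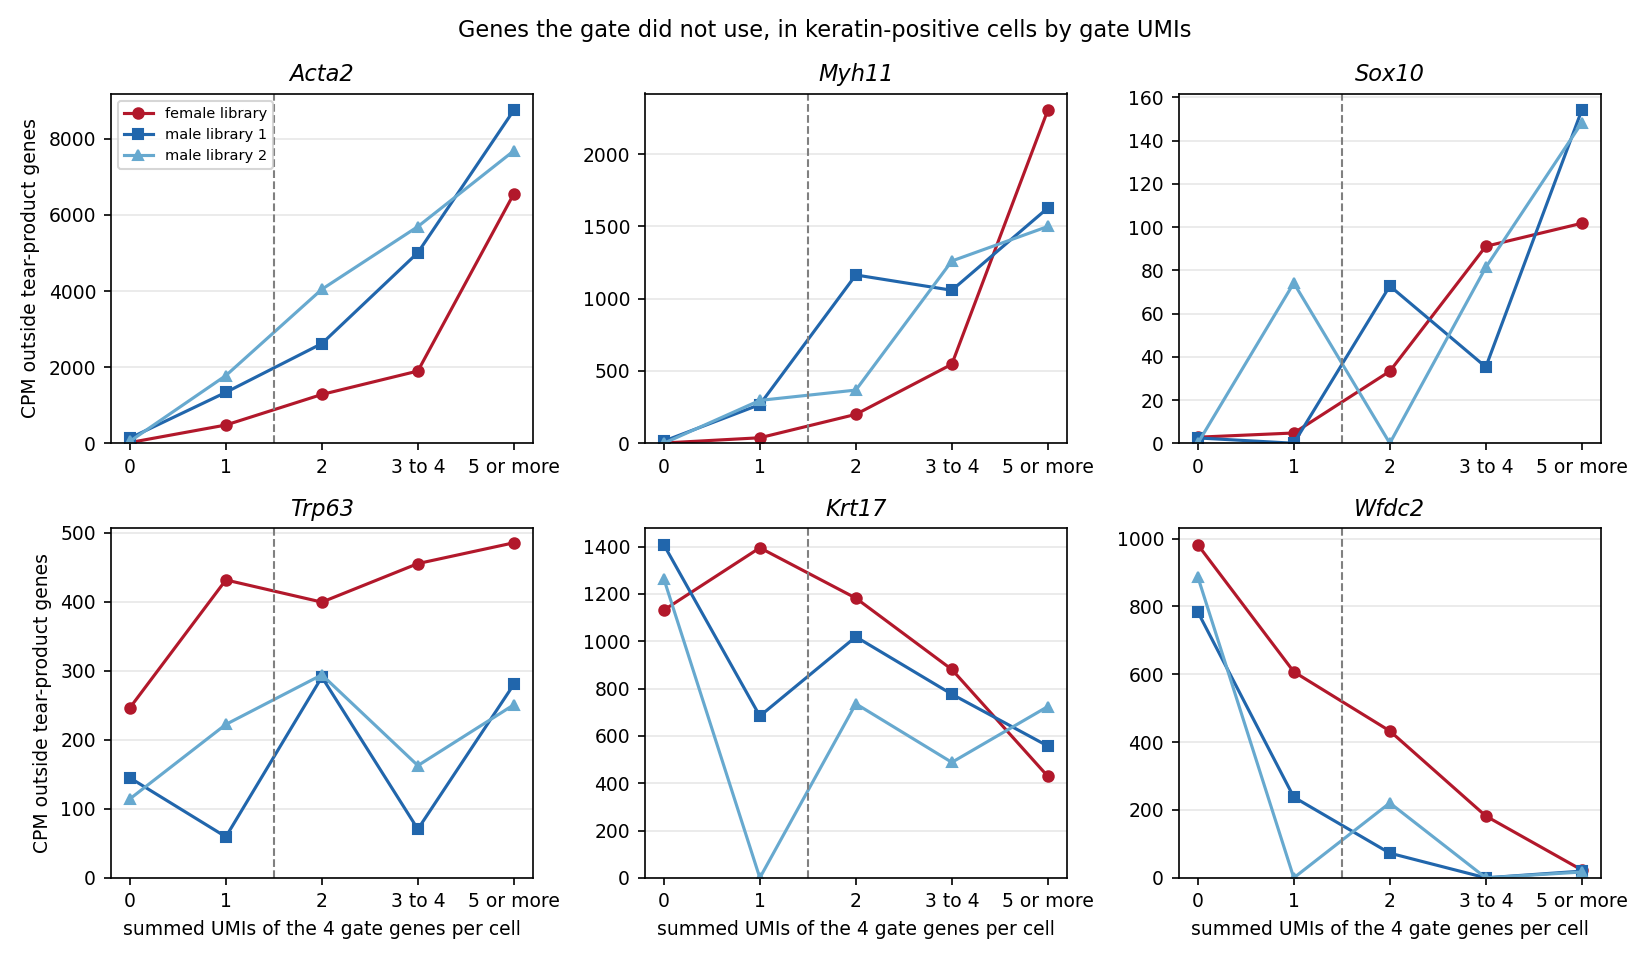
CPM (counts outside tear-product genes) of 6 genes the rule did not use, plotted against the summed UMIs of the 4 gate genes in cells with a keratin UMI, with 1 line per library and a dashed line at the MEC threshold. *Acta2* climbed to 6555, 8752 and 7684 CPM in the highest bin while *Wfdc2* in the female library fell from 982 to 23.1 CPM.

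Cells with 2 or more gate UMIs but no *Krt5* or *Krt14* UMI were left out by the rule and numbered 54, 57 and 59, of which 40, 56 and 57 held no UMI of *Ptprc*, *Pecam1* or *Notch3*. The latter carried *Acta2* at 2297, 5848 and 4885 CPM and the basal epithelial factor *Trp63* at 333, 296 and 218 CPM, close to MEC levels in the male libraries. They also carried the fibroblast collagen *Col1a1* at 3659, 992 and 807 CPM, so this set is mixed.

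The epithelial and contractile programmes were found in the same cells. After each cell was thinned to 1000 UMIs, 71.5%, 65.6% and 67.3% of MECs held at least 1 UMI of *Acta2*, *Tagln* or *Myh11* together with at least 1 UMI of *Trp63*, *Epcam*, *Cdh1*, *Krt17*, *Sfn* or *Perp*, none of which the rule used. Without thinning the shares were 93.9%, 84.2% and 83.0%. The thinned share was 3.13%, 0 and 6.06% in mural cells, 1.29%, 1.12% and 0 in duct cells, and 0, 0.218% and 0 in fibroblasts. The gates of mural cells and fibroblasts demand 0 UMIs of *Epcam*, *Krt5* and *Krt14*, which lowers their shares by construction. The duct gate uses none of the 9 genes counted here but allows at most 1 summed UMI of *Cck*, *Cnn1*, *Pcp4* and *Igfbp2*. In the bins above *Acta2* rose with that sum, so this limit lowers the duct share by construction too. Thinned MECs carried *Acta2* in 87.8%, 92.4% and 89.6% of cells and duct cells in 0.857%, 1.12% and 0. Shallower cells, 2, 8 and 18 MECs, were left out of the thinned shares.

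**Figure D2:**
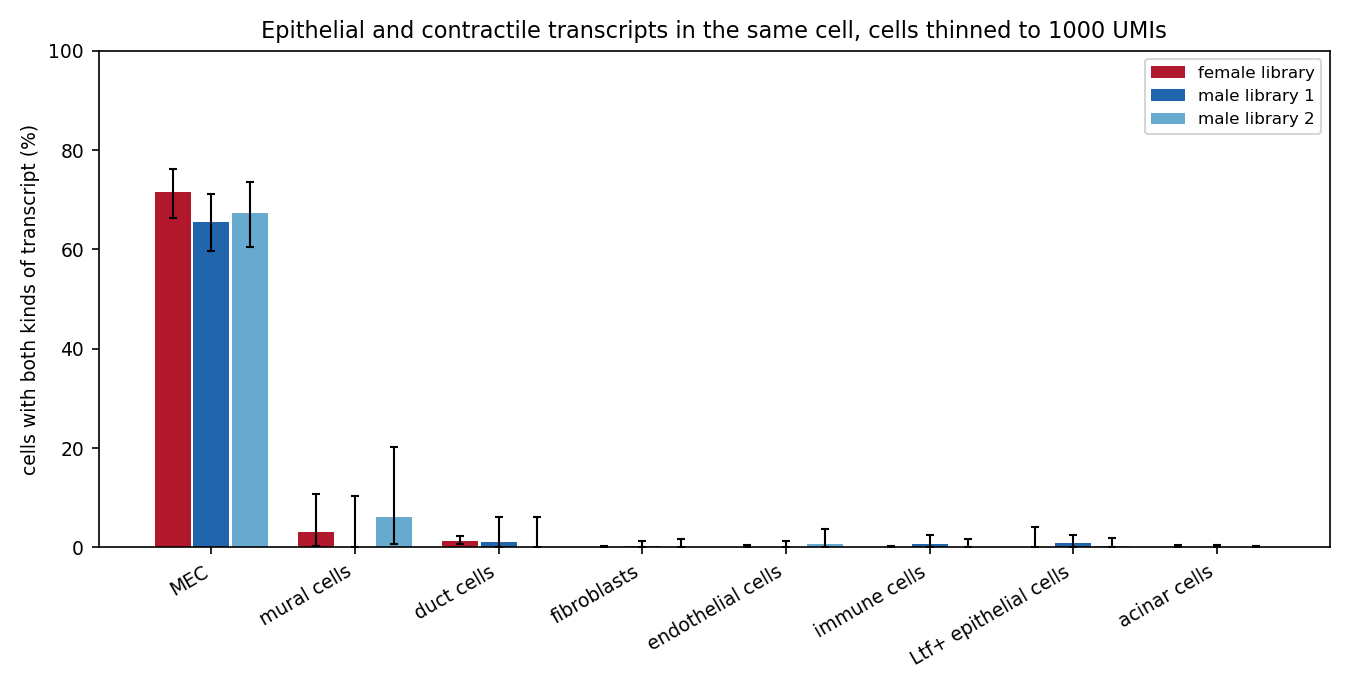
Share of cells (percent) with both a contractile and a basal epithelial transcript after thinning to 1000 UMIs, with 1 bar per library in each cell class and exact binomial 95% intervals that cover counting error only. MECs reached 65.6% to 71.5% and the highest value elsewhere was 6.06% in mural cells of male library 2. The rules that chose the cells favour this contrast.

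Tests used UMIs summed per library for MECs and for each comparison class, with the library as a block. A gene was called at a Benjamini-Hochberg adjusted p under 0.05 in edgeR's quasi-likelihood test over all genes tested. Its p-values and standard errors use a spread that edgeR shares across genes, and not each gene's own spread over 3 libraries alone. The comparisons share the MEC sums and are given side by side. Against mural cells 369 of 2780 genes tested were higher in MECs (13.3%) and 309 lower (11.1%). Scaling by total UMIs, which moved the median of all genes from 0.08 to 0.36 on the log2 scale, gave 405 and 198. The same scaling moved that median to 0.11 against duct cells and 0.11 against fibroblasts. Against duct cells 590 of 4385 genes were higher (13.5%) and 444 lower (10.1%), and against fibroblasts 1091 of 5726 were higher (19.1%) and 1187 lower (20.7%). Fewer genes could be tested against mural cells because their sums were small. The percentages given here are the background for the counts within lists below.

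Contractile genes of MECs were at or near mural levels and far above those of duct cells and fibroblasts. *Acta2* stood at 5926, 8107 and 7223 CPM in MECs and at 7883, 6595 and 5835 CPM in mural cells. The groups overlapped, and the log2 difference was 0.03 ± 0.22 (SE, adjusted p = 0.96), so no difference was detected. In duct cells *Acta2* stood at 14.1, 30.6 and 0 CPM (log2 difference 8.69 ± 0.28) and in fibroblasts at 3.55, 14.7 and 4.27 CPM (10.16 ± 0.29), below its 32.3, 43.2 and 30.6 CPM in uncalled barcodes. Of 17 contraction genes, 16 were tested against duct cells and 16 were higher in MECs, with a median log2 difference of 3.97 against 0.02 over all genes. Against fibroblasts 16 of 16 tested were higher as well, with a median of 4.28 against 0.01. These lists were partly taken from what the study reported on these samples, so their direction is not independent evidence. The limit on *Cck*, *Cnn1*, *Pcp4* and *Igfbp2* UMIs in the duct gate also favours higher contractile genes in MECs.

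Against mural cells the same list split, with 2 of 16 tested higher and 6 lower. The higher share (12.5%) was near the 13.3% over all genes, where 11.1% were lower. *Tpm2*, a tropomyosin, stood at 4933, 6756 and 6554 CPM in MECs against 4190, 4053 and 3133 CPM in mural cells (log2 difference 0.63 ± 0.21, adjusted p = 0.016), and *Csrp1*, a LIM protein of smooth muscle, at 1094, 1585 and 1465 against 484, 221 and 645 CPM (1.46 ± 0.23, adjusted p = 5.6e-08). Both were higher in MECs in each library. The heavy chain *Myh11* stood at 2059, 1551 and 1400 CPM in MECs and at 3997, 2616 and 1689 CPM in mural cells (log2 difference -0.72 ± 0.20, adjusted p = 0.0021). *Myl9*, *Tagln*, *Tpm1*, *Cald1* and *Vcl* were called lower too, with log2 differences of -0.61, -0.58, -0.82, -0.83 and -0.90. The median of the 16 genes was -0.21 against 0.08 over all genes. The 6 lower calls did not hold: 0 remained with scaling by total UMIs, 0 with no filter on low counts and 0 without the female library, and *Tpm2* lost its call without any of the 3 libraries (log2 differences 0.52 to 0.83), whereas *Csrp1* kept it.

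*Des*, the muscle intermediate filament desmin, gave 0 UMIs in the MECs of each library against 719, 1068 and 983 CPM in mural cells. It is a gene of the mural gate, so this contrast is a description, and 0 UMIs in the MEC sums allow a level of up to 2.00 CPM (3 counts). Against all other cells it was the 1 contraction gene of 17 that was lower in MECs, and the other 16 were higher (background: 11.4% of 12428 genes higher and 20.3% lower). *Actg2*, the enteric smooth muscle actin, stood at 95.9, 173 and 112 CPM in MECs and at 76.1, 73.7 and 61.4 CPM in mural cells (log2 difference 0.56 ± 0.44, not called). It gave 0 UMIs in duct cells, which makes MECs at least 122-fold higher. How reads shared by the near-identical *Acta2* and *Actg2* were assigned is not given in the sources used here.

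**Figure D3:**
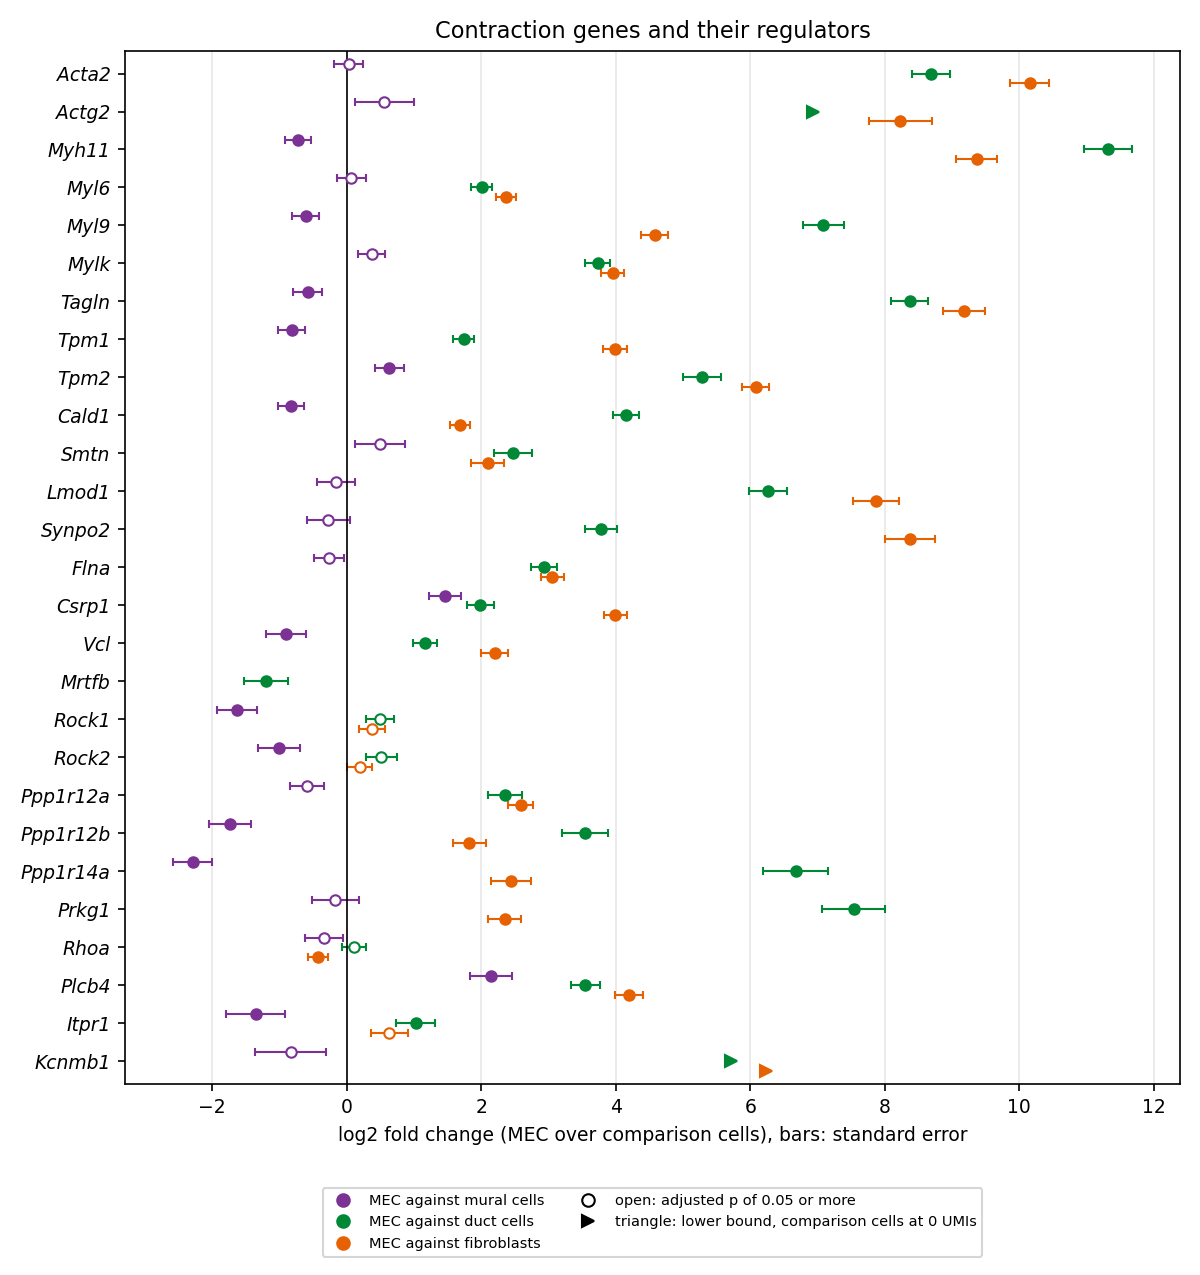
Log2 fold change of MECs over mural cells, duct cells and fibroblasts for each tested contraction gene and regulator (0 means equal levels). Bars are standard errors of the edgeR fit to 3 libraries. Open circles mark an adjusted p of 0.05 or more, and triangles mark lower bounds against cells with 0 UMIs. The contraction genes scatter from -0.90 to 1.46 against mural cells and lie above 1 against duct cells and fibroblasts.

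Many smooth muscle genes carry a CArG box, the DNA element that binds serum response factor (*Srf*). The box was searched by its name's consensus on both strands (it reads as itself on either). The windows ran from 250 bases before to 50 after each gene's start in RefSeq (GRCm38.p6). Of 27025 genes with a window, 488 held a box (1.81%). Of the contraction genes 14 of 17 had a window and 3 held a box, *Myl6*, *Myl9* and *Vcl*, whereas *Srf* itself held a pair. A match is a description of the letters and not of binding. Boxes that depart from the consensus or lie outside the window were not searched, so genes without a match are not shown to lack one. The stretches around the boxes are shown because *Myl6*, *Myl9* and *Vcl* were higher in MECs than in duct cells and *Srf* encodes the factor that binds the box (*Srf* stood at 18.2, 13.5 and 37.4 CPM in MECs and was not tested against duct cells). They are given in lower case with the boxes in capitals, read 5′ to 3′ on the gene's strand, at chr10:128493035-128493074 (minus strand, box 50 bases before the start), chr2:156775288-156775327 (plus, 161 bases), chr14:20929156-20929195 (plus, 227 bases) and, for *Srf*, chr17:46556200-46556259 (minus, 82 and 62 bases).
Myl6: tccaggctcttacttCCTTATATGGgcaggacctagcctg
Myl9: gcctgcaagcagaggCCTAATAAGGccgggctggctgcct
Vcl: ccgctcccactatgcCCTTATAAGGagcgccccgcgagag
Srf: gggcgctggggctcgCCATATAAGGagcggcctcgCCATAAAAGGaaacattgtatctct

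Regulators of contraction included genes on either side of the mural level. *Plcb4*, a phospholipase that links receptors to calcium release, stood at 568, 721 and 744 CPM in MECs against 180, 184 and 0 CPM in mural cells (log2 difference 2.14 ± 0.31, adjusted p = 3.0e-09), and was also higher than in duct cells (3.55 ± 0.22) and fibroblasts (4.20 ± 0.21). *Ppp1r14a*, the inhibitor of myosin phosphatase, stood at 77.7, 142 and 117 CPM in MECs against 429, 553 and 553 CPM in mural cells (-2.29 ± 0.29, adjusted p = 1.2e-11). The groups did not overlap for either gene. The kinases *Rock1* and *Rock2*, the phosphatase subunit *Ppp1r12b* and the calcium channel *Itpr1* were called lower at -1.64, -1.01, -1.73 and -1.35, which makes 5 lower and 1 higher of 10 tested (median -0.92). Over all genes 11.1% were lower and 13.3% higher than in mural cells. Without the female library 1 lower call was left, and 3 with total-UMI scaling. Against duct cells 7 of 11 tested regulators were higher and *Mrtfb*, a coactivator of *Srf*, was lower (-1.20 ± 0.33), with a median of 2.36. The call of *Mrtfb* was lost with DESeq2 (-1.55), with free RNA subtracted (-1.51) and without male library 1 (-1.16), and the gene could not be tested without the female library. Against fibroblasts 6 of 10 were higher and the GTPase *Rhoa* was lower (-0.43 ± 0.15), with a median of 2.08. The call of *Rhoa* was lost with total-UMI scaling, DESeq2, no library block and free RNA subtracted, and without the female library (-0.38) or male library 1 (-0.39). *Kcnmb1*, the channel subunit typical of smooth muscle, stood at 45.4, 64.3 and 42.1 CPM in MECs with 0 UMIs in duct cells and fibroblasts, at least 52.4-fold and 75.4-fold lower. *Myocd*, the master coactivator of vascular smooth muscle, gave 0 UMIs in MECs and 10, 1 and 2 UMIs in mural cells, where 3 counts in the MEC sums would be 2.00 CPM.

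The receptor list held receptors for transmitters and peptides that can act on contractile cells and, besides these, the neurotrophic receptors *Ntrk3*, *Gfra2* and *Ret*. Of the 17 listed, *Adra1a*, *Adra1b*, *P2ry2*, *Vipr2*, *Cckar* and *Cckbr* gave 0 UMIs in the MECs of each library. Neither cholecystokinin receptor was thus detected in the cells that carried *Cck*. In the female library both also gave 0 UMIs in every other cell class, so this absence was not particular to MECs. The oxytocin receptor *Oxtr* gave 2, 3 and 2 UMIs in MECs, 0 in mural and duct cells, and 7 UMIs in fibroblasts of the female library. The muscarinic receptor *Chrm3* stood at 169, 71.1 and 56.2 CPM in MECs, at 80.4, 61.3 and 70.0 CPM in duct cells and at 0.508, 0 and 0 CPM in fibroblasts. The call against duct cells (log2 difference 0.85 ± 0.24, adjusted p = 0.016) was lost without the female library (0.03) and without male library 1 (0.87). With DESeq2, no library block or either subtraction of free RNA, 1 listed receptor was called higher than in duct cells. The neurotrophin receptor *Ntrk3* was the clearest of the list, at 578, 440 and 449 CPM in MECs against 41.5, 36.8 and 30.7 CPM in mural cells (3.71 ± 0.42, adjusted p = 1.1e-13) and 55.9, 51.1 and 14.0 CPM in duct cells (3.39 ± 0.22). The endothelin receptor *Ednra* ran the other way, at 36.3, 13.5 and 14.0 CPM in MECs and 131, 111 and 154 CPM in mural cells (-2.36 ± 0.55, adjusted p = 0.00024, not called without the female library). Of the tested receptors 1 of 2 was higher against mural cells, 2 of 3 against duct cells and 2 of 3 against fibroblasts.

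Basal epithelial genes were higher in MECs than in mural cells and fibroblasts, a direction that the selection of cells favoured. MECs needed a *Krt5* or *Krt14* UMI, whereas the gates of both other classes demand 0 UMIs of *Krt5*, *Krt14* and *Epcam*. Of 18 listed, 14 of 15 tested were higher than in mural cells and 16 of 16 higher than in fibroblasts, and 0 were lower. The median log2 difference was 6.49 against mural cells, or 3.73 with genes at 0 UMIs in mural cells held at their lower bound, and 6.24 against fibroblasts. *Trp63*, the master factor of basal epithelium, stood at 478, 261 and 243 CPM in MECs and gave 0 UMIs in mural cells, which makes MECs at least 27.4-fold higher. *Krt17* stood at 505, 599 and 697 CPM (at least 37.5-fold higher), the hemidesmosomal collagen *Col17a1* at 316, 268 and 178 CPM (at least 19.5-fold) and the laminin chain *Lama3* at 177, 102 and 112 CPM (at least 10.4-fold). *Dst*, dystonin, was the 1 tested gene not called, at 292, 196 and 150 CPM against 353, 479 and 92.1 CPM. Mural sums were small, and 9 genes were called higher without the female library.

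Set against duct cells, the basal list divided, with 3 genes higher and 6 lower of 18 and a median of -0.10. Over all genes 13.5% were higher and 10.1% lower, so 3 of 18 (16.7%) was near the background share. *Trp63* (log2 difference 0.68 ± 0.19), *Lama3* (0.98 ± 0.22) and the adhesion molecule *Nectin1* (1.31 ± 0.17) were called higher in MECs. *Trp63* lost its call without the female library or male library 1 and *Lama3* without male library 1 (log2 differences 0.67, 0.80 and 0.88). With DESeq2, no library block or free RNA subtracted, 1 gene of the list was called higher, and 5 were with total-UMI scaling. *Nectin1* stood at 294, 166 and 215 CPM in MECs against 113, 81.7 and 84.0 CPM in duct cells, with no overlap. *Krt15*, *Krt17*, the integrin *Itgb4*, *Sfn* and the epithelial adhesion molecules *Epcam* and *Cdh1* were lower. *Epcam* stood at 331, 359 and 365 CPM in MECs against 681, 715 and 798 CPM in duct cells (-1.05 ± 0.15, adjusted p = 0.00012), and *Krt17* at 1435, 2054 and 1287 CPM in duct cells (-1.42 ± 0.18). The other 9 of 18, among them the desmosomal *Dsp* (0.03 ± 0.16) and *Perp* (0.02 ± 0.16), were not called. Both keratins of the gate were also present in duct cells, *Krt14* at 1370, 2496 and 2481 CPM in MECs and 2349, 3300 and 2407 CPM in duct cells.

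Matrix genes were mostly higher in MECs than in duct cells and divided against fibroblasts and mural cells. Against duct cells 16 of 18 tested matrix genes were higher, with a median log2 difference of 2.70, and the metalloprotease inhibitor *Timp3* alone was lower (-1.06 ± 0.19). Without male library 1 the call of *Timp3* was lost (-1.04, adjusted p = 0.060), and without male library 2 a total of 2 matrix genes were called lower. *Sparcl1*, a matricellular protein, stood at 1262, 941 and 833 CPM in MECs against 2.94, 0 and 0 CPM in duct cells (8.70 ± 0.31) and 2137, 1289 and 1044 CPM in mural cells, where its lower call (-0.58 ± 0.20, adjusted p = 0.023) was lost without the female library. The basement membrane collagen *Col4a1* stood at 636, 694 and 571 CPM in MECs, at 53.6, 0 and 14.0 CPM in duct cells (3.86 ± 0.30) and at 957, 1574 and 1105 CPM in fibroblasts, where the lower call passed the test. Against fibroblasts 9 of 21 were higher and 12 lower (median -1.11). The 12 were *Col4a1*, *Col4a2*, *Lamb1*, *Lamc1*, *Nid1*, *Nid2*, *Hspg2*, *Bgn*, *Dcn*, *Timp3*, *Sparc* and *Lgals1*. The nidogen *Nid1*, which links laminin to collagen, stood at 33.3, 10.2 and 4.68 CPM in MECs against 889, 678 and 666 CPM in fibroblasts (-5.25 ± 0.26). Against mural cells 8 of 18 were higher and 6 lower (median 0.60), and 4 and 3 without the female library. *Abi3bp*, an extracellular matrix protein, stood at 835, 677 and 697 CPM in MECs with 2 UMIs in all mural cells (80.2-fold by pooled UMIs, interval 22.1 to 663).

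Transcripts of many listed secreted factors were higher in MECs than in the tested comparison classes. This list, like the matrix list, partly holds genes that the study reported as enriched in MECs of these samples. The counts are therefore not independent evidence. Of 30 listed signals, 14 of 17 tested were higher than in mural cells with 0 lower, 14 of 20 higher than in duct cells with *Mif* and *Wnt10a* lower, and 17 of 23 higher than in fibroblasts with *Igfbp6*, *Cxcl14*, *Bmp4* and *Tgfb2* lower. The medians were 3.61, 2.03 and 2.88. The call of *Wnt10a* against duct cells was marginal (-0.94 ± 0.32, adjusted p = 0.049) and was lost in most alternatives, and *Mif* (-0.73 ± 0.15) lost its call without male library 1 (-0.76, adjusted p = 0.058). *Nrg1*, a ligand of ErbB receptors, stood at 287, 328 and 342 CPM in MECs, gave 0 UMIs in mural cells (at least 20.6-fold lower) and stood at 4.58, 10.2 and 0 CPM in duct cells (5.88 ± 0.27). *Nrtn*, neurturin, which supports parasympathetic neurons, stood at 299, 430 and 449 CPM in MECs and at 29.7, 71.5 and 70.0 CPM in duct cells (3.13 ± 0.20), and gave 0 UMIs in mural cells (at least 23.6-fold lower). Outside the tested classes, *Ltf*+ epithelial cells had the next highest *Nrtn* level, 75.5, 140 and 116 CPM, and in thinned cells it was found in 22.7%, 19.2% and 21.3% of MECs and in 0, 0 and 0.476% of fibroblasts. The co-receptor *Ret* of the neurturin family gave 0 UMIs in MECs of the male libraries, and *Gfra2*, the neurturin receptor, stood at 10.1, 23.7 and 18.7 CPM.

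*Kitl*, the ligand of the KIT receptor, stood at 1300, 1019 and 983 CPM in MECs, above 187, 111 and 154 CPM in mural cells (2.79 ± 0.28), 149, 112 and 42.0 CPM in duct cells (3.26 ± 0.21) and 92.9, 52.6 and 42.7 CPM in fibroblasts (3.96 ± 0.18). The groups did not overlap in any of these 3 comparisons, and endothelial cells came next at 602, 361 and 175 CPM. *Igfbp5* stood at 3303, 2306 and 1947 CPM in MECs against 1244, 360 and 866 CPM in fibroblasts (1.62 ± 0.21), the highest of the 3 comparison classes in 2 of 3 libraries. The WNT antagonist *Sfrp1* stood at 1192, 925 and 871 CPM against 338, 245 and 168 CPM in duct cells (1.93 ± 0.18). *Lcn2*, the iron-sequestering lipocalin 2, stood at 1372, 1514 and 1437 CPM in MECs, gave 0 UMIs in mural cells (at least 96.0-fold lower) and stood at 364, 347 and 546 CPM in duct cells (1.83 ± 0.17).

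*Apoe*, the lipid carrier apolipoprotein E, was among the most abundant MEC transcripts outside the tear products, at 13117, 14820 and 14961 CPM. Mural cells stood at 1148, 847 and 491 CPM (log2 difference 4.02 ± 0.27, adjusted p = 3.4e-29), duct cells at 2228, 2493 and 1847 CPM (2.71 ± 0.18) and fibroblasts at 2202, 4175 and 3520 CPM (2.05 ± 0.18). Of the 7 other classes immune cells came closest, at 18857, 12147 and 15168 CPM, above MECs in the female library and male library 2 and below them in male library 1. The 8 immune markers of the list summed to 165, 342 and 510 CPM in MECs and to 20498, 24680 and 23992 CPM in immune cells, with *Ptprc* fixed at 0 in MECs by the rule. Thinned MECs held an *Apoe* UMI in 98.0%, 98.6% and 96.7% of cells, immune cells in 70.7%, 61.2% and 62.7%.

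**Figure D4:**
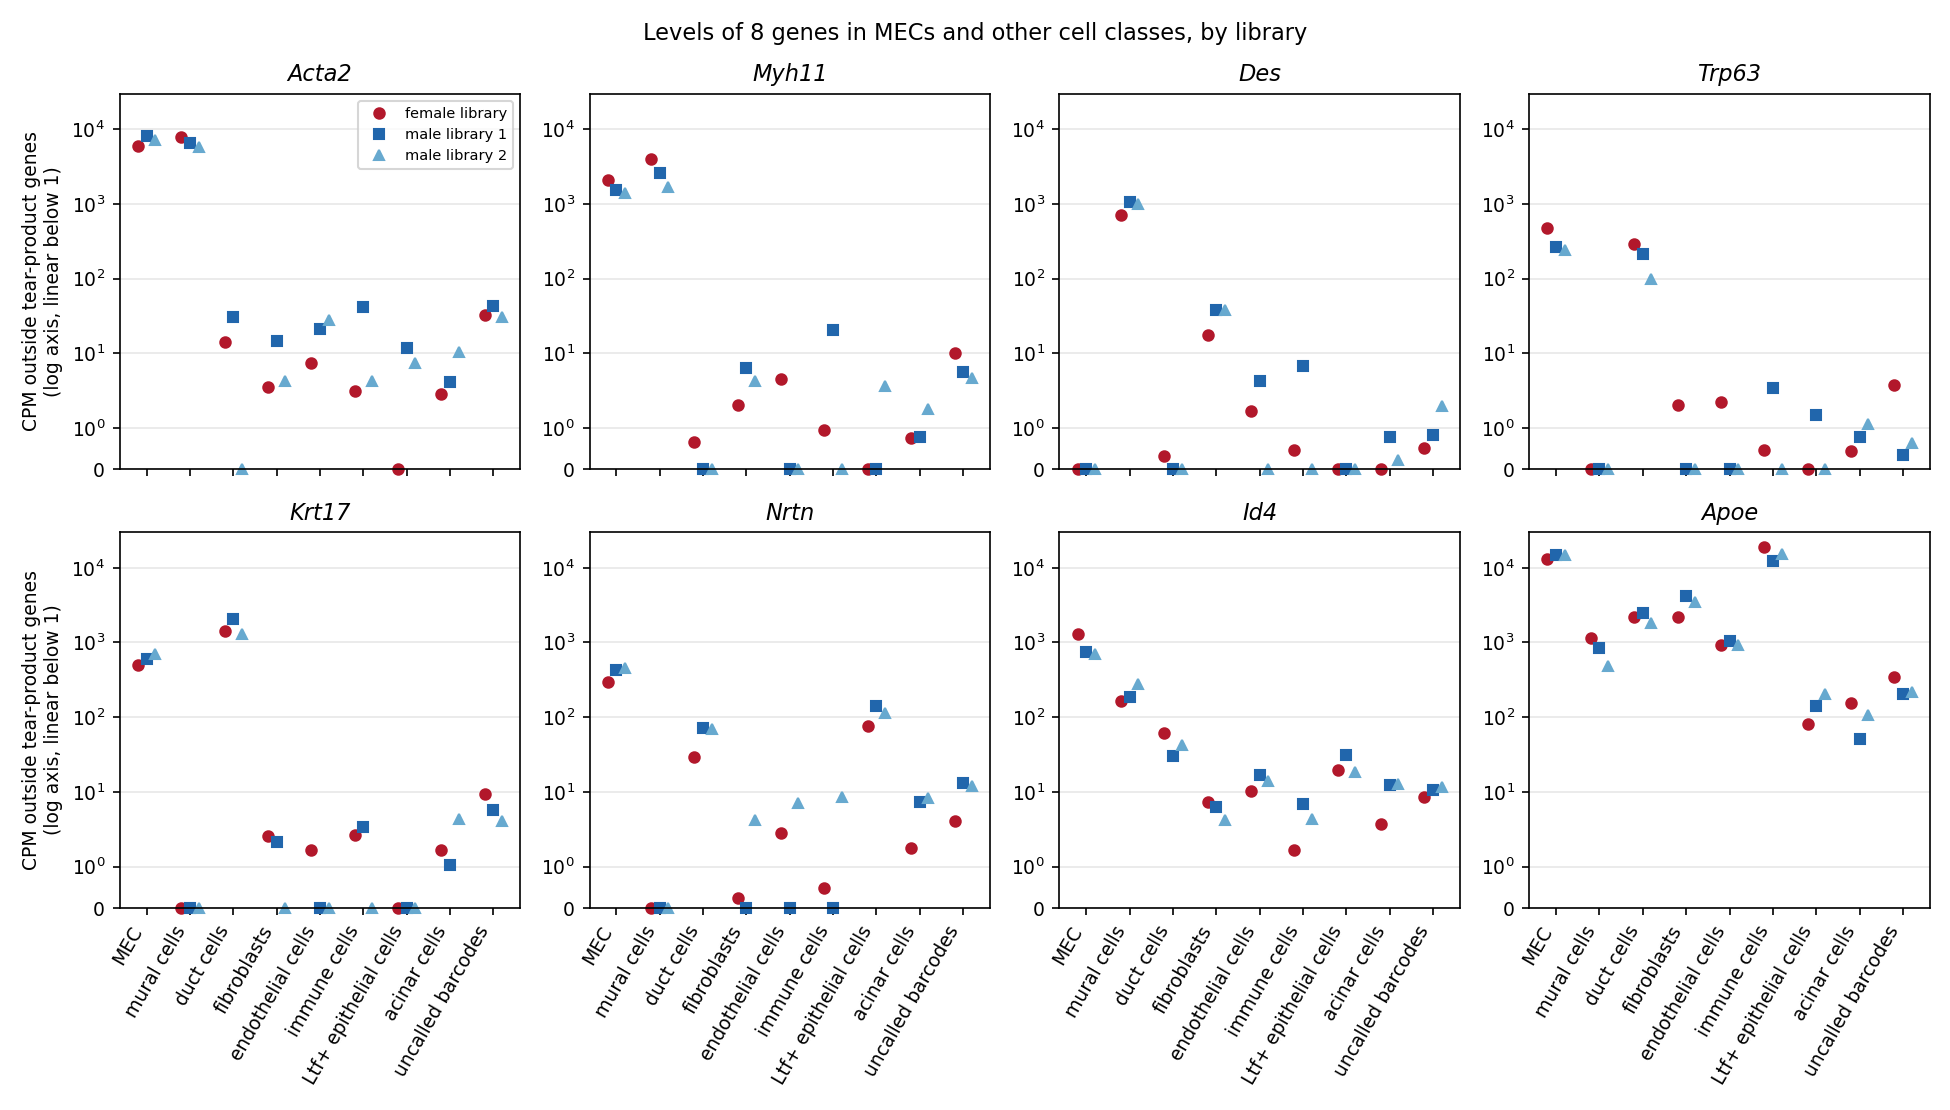
CPM outside tear-product genes (log axis, linear below 1) of 8 genes in 8 cell classes and in uncalled barcodes, with 1 point per library. *Acta2* and *Myh11* are high in MECs and mural cells, *Trp63* and *Krt17* in MECs and duct cells, *Apoe* in MECs and immune cells, and *Des* is at 0 in MECs.

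Members of the ID family, inhibitors of basic helix-loop-helix factors, ran in opposite directions in MECs. *Id4* stood at 1291, 738 and 702 CPM in MECs, at 166, 184 and 276 CPM in mural cells (2.32 ± 0.29) and at 61.8, 30.6 and 42.0 CPM in duct cells (4.35 ± 0.21). *Id3* ran the other way, at 34.3, 3.39 and 37.4 CPM in MECs against 602, 1437 and 1229 CPM in mural cells (-5.10 ± 0.32) and 532, 764 and 653 CPM in fibroblasts (-4.56 ± 0.30). *Id1* gave 0, 6.77 and 4.68 CPM in MECs and 71.6, 51.1 and 70.0 CPM in duct cells (-5.01 ± 0.64). *Sox10*, a factor of distal glandular epithelium and of glia, stood at 96.9, 139 and 131 CPM in MECs against 3.60, 0 and 0 CPM in duct cells (4.81 ± 0.39) and 0 UMIs in mural cells (at least 7.49-fold lower, not called without the female library). It was also present in *Ltf*+ epithelial cells at 29.1, 38.8 and 33.0 CPM. The Schwann markers *Cdh19*, *Foxd3*, *S100b* and *Gfra3* gave 0 UMIs in MECs of each library, and the 8 of that list summed to 30.3, 10.2 and 9.36 CPM.

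Of 20 listed factors, 8 of 12 tested were higher than in mural cells and 3 lower, 5 of 15 higher and 7 lower than in duct cells, and 12 of 14 higher and 2 lower than in fibroblasts, with medians of 2.45, -0.28 and 3.72. Without the female library 2 factors were called higher against mural cells. *Sox9*, *Foxc1*, *Barx2*, *Runx1* and *Klf5* were, with *Id1* and *Id3*, the 7 lower than in duct cells, with *Klf5* at 19.2, 20.3 and 28.1 CPM against 203, 174 and 154 CPM (-3.20 ± 0.26). *Mef2c*, a factor of muscle development, stood at 260, 217 and 215 CPM in MECs, between mural cells (982, 1105 and 399 CPM) and duct cells (5.56, 10.2 and 0 CPM), and both differences were called (-1.85 ± 0.25 and 5.45 ± 0.27). *Zeb2*, a repressor typical of mesenchyme, stood at 13.1, 16.9 and 4.68 CPM in MECs against 609, 589 and 553 CPM in mural cells (-5.57 ± 0.36). *Pax6*, the eye-field factor of the ocular surface and LG, stood at 395, 247 and 374 CPM in MECs and 469, 398 and 336 CPM in duct cells, with overlap and no call (-0.28 ± 0.18).

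**Figure D5:**
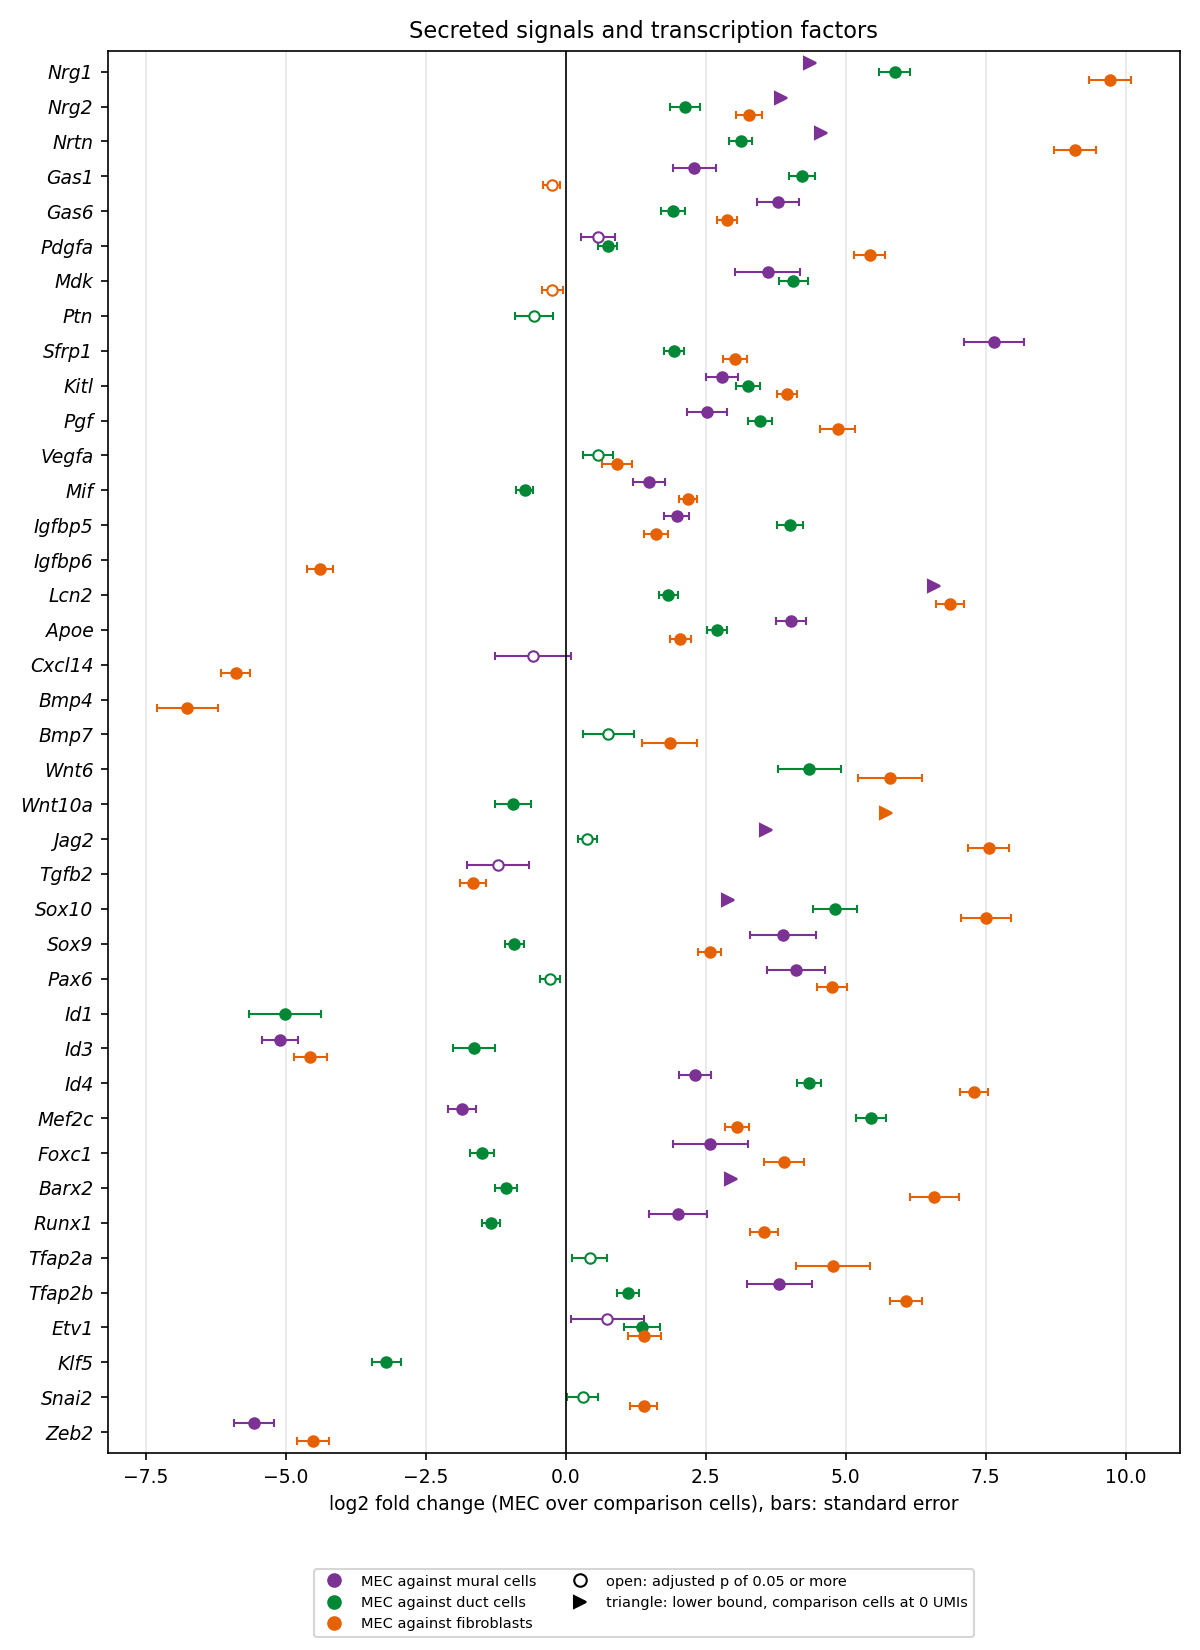
Log2 fold change of MECs over mural cells, duct cells and fibroblasts for secreted signals and transcription factors. Bars are standard errors of the edgeR fit to 3 libraries. Open circles mark an adjusted p of 0.05 or more, and triangles mark lower bounds against cells with 0 UMIs. *Kitl*, *Igfbp5*, *Apoe* and *Id4* lie to the right in each comparison and *Id3* to the left.

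The 18 immediate early and stress genes, of which many rise on dissociation, summed to 32134, 29185 and 30170 CPM in MECs and to 1198, 3688 and 3572 CPM in acinar cells, with mural cells, duct cells and fibroblasts between 17302 and 36294 CPM. *Fos* stood at 6341, 7417 and 6825 CPM in MECs against 3451, 3463 and 3808 CPM in mural cells (0.91 ± 0.21), 4929, 4362 and 2826 CPM in duct cells (0.79 ± 0.19) and 2882, 3782 and 3123 CPM in fibroblasts (0.96 ± 0.15). Of the 18 genes of that list 9 were higher and 2 lower against mural cells, 2 higher and 4 lower against duct cells, and 7 higher and 1 lower against fibroblasts, with medians of 0.44, -0.03 and 0.27. Over all genes 13.3%, 13.5% and 19.1% were higher and 11.1%, 10.1% and 20.7% lower against these classes. The part of these 18 genes in the other differences was not tested. Cell cycle genes summed to 164, 115 and 98.3 CPM in MECs. Of the 8 genes 7, *Mki67* and *Top2a* among them, gave 0 UMIs in MECs of male library 2, the shallowest. *Stmn1* was the 1 gene of the list tested against each class. It was called higher than in mural cells (2.67 at its lower bound) and fibroblasts (3.03) and was not called against duct cells.

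Summed markers of mural cells, fibroblasts, endothelial cells and duct cells were lower in MECs than in those cells. The 9 mural markers summed to 63.6, 50.8 and 70.2 CPM in MECs and 9743, 7221 and 5774 CPM in mural cells, with *Notch3* fixed at 0 by the rule and *Kcnj8*, *Higd1b* and *Cspg4* at 0 UMIs. Fibroblast markers summed to 329, 203 and 468 CPM (18280, 29457 and 22972 in fibroblasts), endothelial markers to 36.3, 23.7 and 108 CPM (10041, 8925 and 7254 in endothelial cells) and luminal duct markers to 685, 833 and 1147 CPM (4574, 6947 and 7822 in duct cells). Acinar markers summed to 2652, 7393 and 6202 CPM in MECs and to 2629, 5192 and 6528 CPM in fibroblasts. Single markers ran the other way. *Krt7* and *Krt8* were called higher in MECs than in mural cells and fibroblasts, and *Krt18* higher than in fibroblasts, whereas *Ly6a* was lower than in both. *Aqp5* was called higher than in both classes and *Ltf* higher than in fibroblasts.

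By the size of the difference, the genes that led against all other cells, each with more than 50 CPM in MECs on average, were *Il17b*, a cytokine of the interleukin 17 family, *Tmem59l*, *Ecrg4*, which encodes a secreted peptide precursor, *Frmpd1os*, the N-cadherin gene *Cdh2*, *Actg2*, the water channel *Aqp4*, *Acta2*, *Gm9885* and *Sbpl*. *Il17b* stood at 46.4, 50.8 and 65.5 CPM in MECs against 0.119, 0.479 and 0.371 CPM elsewhere (7.06 ± 0.52, adjusted p = 1.5e-12). *Aqp4* stood at 129, 139 and 183 CPM against 1.23, 1.68 and 1.49 CPM (6.14 ± 0.32). In all 1412 genes were higher and 2523 lower than in all other cells, but the split depended on scaling: by total UMIs, which moved the median of all genes from -0.19 to 1.32, it was 7045 higher and 737 lower. The 10 leading genes differed by 5.82 or more. Among the lists, contraction regulators had 10 of 15 tested higher and 1 lower than in all other cells, receptors 5 and 2 of 11, basal epithelium 15 and 0 of 18, matrix 14 and 3 of 22, secreted signals 21 and 5 of 28, transcription factors 8 and 6 of 19, and immediate early genes 11 and 0 of 18. Their medians were 1.25, 1.24, 1.90, 1.13, 2.50, 0.08 and 0.72, against -0.19 over all genes. Markers of other lineages were lower in 8 of 8 tested for acinar cells, 5 of 8 for luminal duct, 6 of 6 for *Ltf*+ cells, 3 of 5 for mural cells (1 higher, *Gucy1a1*), 8 of 8 for fibroblasts, 6 of 6 for endothelial cells, 7 of 7 for immune cells, 1 of 3 for Schwann cells and 3 of 7 for the cell cycle. The lowest were the immunoglobulin genes *Ighm*, *Igkc*, *Igha* and *Jchain* and the endothelial phosphatase *Ptprb*.

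Against mural cells the leading genes were *Lcn2*, *Mia*, *Krt17*, *Trim29*, *Spon2*, *Mme*, *Trp63*, *Apoc1*, *Nrtn* and *Hpgd*, each with 0 UMIs in mural cells. *Mme*, neprilysin (CD10), a known myoepithelial marker of other glands, stood at 420, 393 and 407 CPM (at least 28.1-fold higher), and *Trim29* at 512 ± 11.4 CPM (SD, n = 3 libraries, at least 34.5-fold). *Mia*, a small secreted protein, stood at 815 CPM in the female library and at 268 and 243 CPM in the male libraries (at least 42.6-fold, with an adjusted p of 0.069 by DESeq2). At the other end, *Gm13889*, gamma-synuclein *Sncg*, *Rrad* and *Cox4i2* gave 0 UMIs in MECs and were at least 680-fold, 306-fold, 247-fold and 179-fold lower, and *Mustn1*, a musculoskeletal gene, gave 1 UMI against 1023, 921 and 737 CPM in mural cells.

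Against duct cells *Myh11*, *Actg2*, *Fmod*, *Sparcl1*, *Acta2*, *Ism1*, *Ecrg4*, *Tagln*, *Il17b* and *Kcnmb1* led. The proteoglycan *Fmod* stood at 94.8, 84.7 and 60.9 CPM in MECs with 0 UMIs in duct cells (at least 94.7-fold higher). The ion transport regulator *Fxyd2* (2.02, 6.77 and 0 CPM against 334, 409 and 350 CPM, -6.97 ± 0.33), *Fcgbp*, *Dmbt1*, *F5* and *Foxq1* were lowest. *Fcgbp* and *Dmbt1* belong to the *Ltf*+ epithelial markers, which summed to 1828, 5793 and 13013 CPM in the duct cells and 29.3, 325 and 688 CPM in MECs. The part of *Ltf*+ cells in the duct sums was not tested. Against fibroblasts *Pgm5*, *Lama3*, *Acta2*, *Aqp4*, *Nrg1*, *Dll1*, *Myh11*, *Sbpl*, *Trim29* and *Fat2* led. *Pgm5*, a protein of muscle adherens junctions, stood at 183, 115 and 154 CPM (at least 256-fold higher) and the Notch ligand *Dll1* at 81.7, 102 and 74.9 CPM (at least 131-fold). *Cxcl13*, *Pcdh19*, *Dkk2*, *Pcsk6* and *Aspn* gave 0 UMIs in MECs, with *Cxcl13* at least 101-fold lower.

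MECs without a *Cck* UMI were set beside those with one. The 41, 32 and 23 MECs with no *Cck* UMI were as deep as the 305, 252 and 206 with *Cck* (medians of 3881, 1690 and 1456 against 3591, 1804 and 1470 UMIs). In the female library they carried *Acta2* at 2489 CPM against 6395 CPM in MECs with *Cck*, whereas in male library 1 the levels were 6345 and 8336 CPM and in male library 2 they were 7942 and 7149 CPM. *Id4* was lower without *Cck* in each library, at 345, 266 and 302 CPM against 1420, 800 and 743 CPM, and *Krt17* was higher, at 1093, 885 and 1609 CPM against 424, 562 and 604 CPM. *Wfdc2* stood at 286, 29.5 and 201 CPM without *Cck*, on 34, 1 and 4 UMIs, and at 27.5, 19.1 and 10.3 CPM with it. These are values over cells of the same libraries, given as a description. *Cck* counts toward the gate sum, so the split also selects on that sum. *Krt17* stood at 1182, 1018 and 735 CPM in the bin of 2 gate UMIs and at 429, 557 and 724 CPM at 5 or more. The part of the gate sum in these differences was not tested.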

How the data were processed

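Droplet 3′ single-cell RNA-seq of LG suspensions was measured in 3 libraries. The authors made UMI counts per gene and barcode with Cell Ranger 6.1.2 on mm10, per the submitters' processing notes (a header of the unfiltered matrices names another release), and deposited filtered and unfiltered matrices of these counts; no values were corrected for free RNA. Called barcodes (9737, 6422 and 6899) with over 500 UMIs, over 200 genes and under 15% mitochondrial UMIs were kept. MECs and comparison classes were gated on UMIs, and cells in more than 1 other gate were left out. Counts were summed per library and class and tested in R 4.3.3 by edgeR's quasi-likelihood F-test (version 4.0.16; low counts removed by filterByExpr, TMM scaling, library as block, Benjamini-Hochberg over all genes tested, threshold 0.05), leaving the genes of the gates out of the test. The block is the suspension from which both sums of a library came. Folds against a class with 0 UMIs used 3 counts over the class as the floor. Class shares, thinning and doublet scores were computed in Python 3.11.15 with scanpy 1.11.5 (scrublet, 0.8% of barcodes per 1000) and scipy 1.17.1 (exact binomial intervals). Alternatives were DESeq2 1.42.0, RLE and total-UMI scaling, no filter, no block, subtraction of free RNA (profile of uncalled barcodes with 10 to 100 UMIs and, chosen after seeing the data, over 500 up to 2000), doublet removal, a gate of 4 UMIs, under 5% mitochondrial UMIs, and each library left out. Named genes were the 228 genes of 17 lists and, per comparison, the 10 highest and 5 lowest called genes with the same sign in 3 libraries and a mean of at least 50 CPM in the higher arm, without tear-product and mitochondrial genes. The gate, the members and the lists were chosen with earlier results of these data known, and MECs were chosen on UMIs of the same cells that were tested. The scripts were tested on simulated data.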

Additional observations from a re-analysis of the deposited data

How the results depend on the processing

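The counts of genes called depended on tool and scaling more than on the gate. Against all other cells, total-UMI scaling gave 7045 genes higher and 737 lower, DESeq2 1568 lower, and the fit without the library block 1628 lower. Subtracting free RNA by the profile of barcodes with 10 to 100 UMIs left 0 and 0 (798 genes at an unadjusted p under 0.05 in edgeR), because the estimate for the sum of all other cells reaches its limit of 0.95 by construction. Against mural cells, counts higher and lower were 563 and 503 with no filter and 199 and 180 with DESeq2; free RNA subtraction gave 243 higher and total-UMI scaling 198 lower. Against duct cells DESeq2 gave 290 and 220, no block 378 and 254, and free RNA subtraction 348 higher. Against fibroblasts DESeq2 gave 671 and 742, and no filter 2013 lower. Leaving out each library in turn gave 994 to 1514 higher and 1750 to 2156 lower against all other cells, 80 to 451 and 92 to 426 against mural cells (lowest without the female library), 341 to 867 and 261 to 704 against duct cells, and 836 to 1270 and 901 to 1483 against fibroblasts. Without the library block 66 calls of named or listed genes were lost and 1 was gained, and the other 5 of 8 counts of called genes stayed within 1.5 times. The other causes were not tested.

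Of 511 named or listed calls, 262 were made the same way under every alternative that gave a value, and 0 reversed against mural cells, duct cells or fibroblasts. Against all other cells 18 named or listed genes reversed, 8 of them called as reported and 10 not. Under total-UMI scaling the log2 differences became 0.078 for *Dcn*, 1.61 for *Egr3*, 1.52 for *Epcam*, 0.55 for *Etv1*, 1.24 for *Foxc1*, 1.30 for *Hspa8*, 1.46 for *Hspg2*, 1.33 for *Krt8*, 1.64 for *Lamb1*, 0.10 for *Nid2*, 1.32 for *P2rx7*, 1.62 for *Rhoa* and 1.46 for *Tgfb2*. Under free RNA subtraction they became 3.22 for *Aqp5*, 1.59 for *Etv1*, 0.028 for *Igfbp6*, 2.35 for *Krt18* and 0.45 for *Rgs5*, and 0.98 for *Lcn11* with the profile of uncalled barcodes with over 500 and up to 2000 UMIs, an alternative chosen after seeing the data. Depth limits rare genes: 3 counts in the mural sums are 14.7 CPM, against 2.00 CPM in MECs, 0.929 in duct cells and 0.645 in fibroblasts.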
